A study of Mus musculus with 6 samples.

Results

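The genes described here are 10 genes of the serum response factor (SRF) axis, measured in muscle stem cells sorted from resting hindlimb muscle of mice with and without a Cre that deletes Dio2, the gene of the thyroid hormone activating enzyme D2. They are Srf itself, its cofactor Myocd, the actin oxidase Mical2 and 7 cytoskeletal genes known as SRF targets, namely Vcl, Flna, Actn1, Tpm1, Tpm2, Cald1 and Pdlim7. They were taken by name from the 31053 genes of the deposited count table. The list was chosen by the difference between the genotypes seen earlier in these same counts, so their levels are given as a description, and the calls that the fit over all genes made for them are counts from which nothing is read.

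RNA-seq was carried out on quiescent muscle stem cells (qMuSCs, the resting stem cells that lie along muscle fibers) sorted by FACS on nuclear GFP under the control of Pax7, the transcription factor by which these cells are recognized. The 3 WT mice (c124, c129 and c130) had the genotype Pax7nGFP/+;Pax7+/+;Dio2Fl/Fl, and the 3 cD2KO mice (fl125, fl126 and fl128) had the genotype Pax7nGFP/+;Pax7-CreERT2/+;Dio2Fl/Fl; the Fl alleles are floxed Dio2. All mice were 3 to 4 months old and received tamoxifen, which activates CreERT2, and a library was made from each mouse. The comparison asks how the RNA of these cells differs when Dio2 is deleted. The Cre is driven by Pax7, so recombination is directed to cells that express Pax7, and the WT mice carry the floxed alleles but no Cre, so an effect of the Cre allele and of Dio2 cannot be told apart.

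SRF is a DNA-binding protein that recognizes the CArG box and is found in nearly all cells. It acts with cofactors of different classes. The ternary complex factors, such as Elk1 and Elk4, bring SRF to immediate early genes that respond to growth signals within minutes. The myocardin family, which holds Myocd, Mrtfa and Mrtfb, brings SRF to genes of the actin cytoskeleton and of contraction. Mrtfa and Mrtfb bind monomeric actin and are held out of the nucleus by it, so that polymerization of actin frees them. Mical2 oxidizes actin in the nucleus, which lowers monomeric actin there and keeps the cofactor on SRF, and methionine sulfoxide reductases such as Msrb1 reverse that oxidation. In muscle, SRF is known for the control of actin, adhesion and sarcomere genes.

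Depth ranged from 2184073 to 3897787 counts per mouse, at which 3 counts, taken as the floor, equal 0.768 to 1.36 CPM (counts scaled to library size with TMM factors; the floor covers counting error only). Dio2 had 21, 5 and 10 counts in c124, c129 and c130 and 15, 5 and 1 in fl125, fl126 and fl128. Its groups overlapped, it lay under the minimum for a test, and counts over the whole gene do not separate the floxed part from the rest. The muscle stem cell marker Pax7 was found in every library, with WT mice at 212 to 431 CPM and cD2KO mice at 314 to 687 CPM. Defining genes of other cells were found too. The smooth muscle gene Myh11 was at 1989 to 6092 CPM over the 6 mice. Of the immune markers, the macrophage gene C1qa was at 44.4 to 1339 CPM and the B cell gene Cd79a at 0 in every library. Of all 11633 genes tested with edgeR's quasi-likelihood test, 621 were higher and 770 lower in cD2KO than in WT at an unadjusted p under 0.05, a split that became 445 higher and 945 lower under total count scaling.

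Of the 10 genes, 7 were higher in cD2KO and 0 were lower at that threshold, where 5.34% of all genes tested were called higher and 6.62% lower. The 7 were Mical2, Pdlim7, Flna, Actn1, Tpm1, Tpm2 and Cald1. In the same 7 genes every cD2KO mouse lay above every WT mouse, which held for 8.05% of all genes tested. The median log2 fold change of the 10 genes was 0.76, against -0.02 over all genes tested. With p-values adjusted by Benjamini-Hochberg over the whole table, 0 of the 10 passed an adjusted p under 0.05 in edgeR, where 1 gene of the whole table did, or 0.0086%. With DESeq2 6 of the 10 passed, where 2.37% of all genes tested did. Since the genes were selected on this contrast, nothing is read from these counts.

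Srf (ENSMUSG00000015605, chr17:46548329-46556175, minus strand, mm10) encodes the transcription factor. Its level was 73.0, 41.3 and 57.5 CPM in c124, c129 and c130 of the WT group and 105.5, 60.9 and 75.7 CPM in fl125, fl126 and fl128 of the cD2KO group. The groups overlapped, with the WT mouse c124 above the cD2KO mouse fl126. The WT mean was 57.3 ± 15.8 CPM and the cD2KO mean 80.7 ± 22.7 CPM (SD, n = 3 mice each), and the log2 fold change was 0.49 ± 0.26 (standard error). The call depended on single mice. Srf was called higher without c124 and without fl126, and its log2 fold change was 0.29 without fl125, in which it was highest. Srf was thus the only one of the 10 genes whose highest library was fl125.

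Srf is itself known as a target of SRF, and its promoter shows the CArG box that the other genes are read against. The 250 bases before its RefSeq start (chr17:46556163-46556412, minus strand, mm10), in which capitals mark the CArG boxes, are given here because they hold both copies.
Srf promoter: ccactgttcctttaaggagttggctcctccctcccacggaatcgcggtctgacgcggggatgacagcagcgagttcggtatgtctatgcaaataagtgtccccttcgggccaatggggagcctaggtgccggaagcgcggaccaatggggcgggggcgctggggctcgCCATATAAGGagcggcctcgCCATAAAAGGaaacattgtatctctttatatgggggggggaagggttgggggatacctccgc
The boxes lay 82 to 73 and 62 to 53 bases before the start. A further match with 1 mismatch lay 39 to 30 bases before it.

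Myocd (ENSMUSG00000020542, chr11:65176561-65269989, minus strand), the founding member of the myocardin family and a cofactor known from heart and smooth muscle, was scarcely detected. It had 11, 25 and 2 counts in c124, c129 and c130 and 6, 14 and 14 in fl125, fl126 and fl128. These counts stood for 0.692 to 9.23 CPM, and the WT mice alone spanned that whole range. The log2 fold change of -0.06 ± 0.79 (standard error) has an error far above its size, and its sign turned with limma voom, to 0.57, and without fl125, to 0.18. A difference in Myocd was not detectable at this depth.

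Mical2 (ENSMUSG00000038244, chr7:112225856-112413106, plus strand), the actin oxidase, was at 89.1, 77.2 and 85.1 CPM in c124, c129 and c130. It was at 140.4, 125.5 and 156 CPM in fl125, fl126 and fl128. The 3 WT mice lay close together, and the lowest cD2KO mouse was 40.9% above the highest WT mouse. Means were 83.8 ± 6.09 CPM and 140.7 ± 15.3 CPM (SD, n = 3 mice each), a ratio of 1.68, and the log2 fold change was 0.75 ± 0.19 (standard error). Among the 7 genes that separated the genotypes, Mical2 had the smallest coefficient of variation over the cD2KO mice, 10.9%, and fl128 stood apart from the other two the least.

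**Figure D1:**
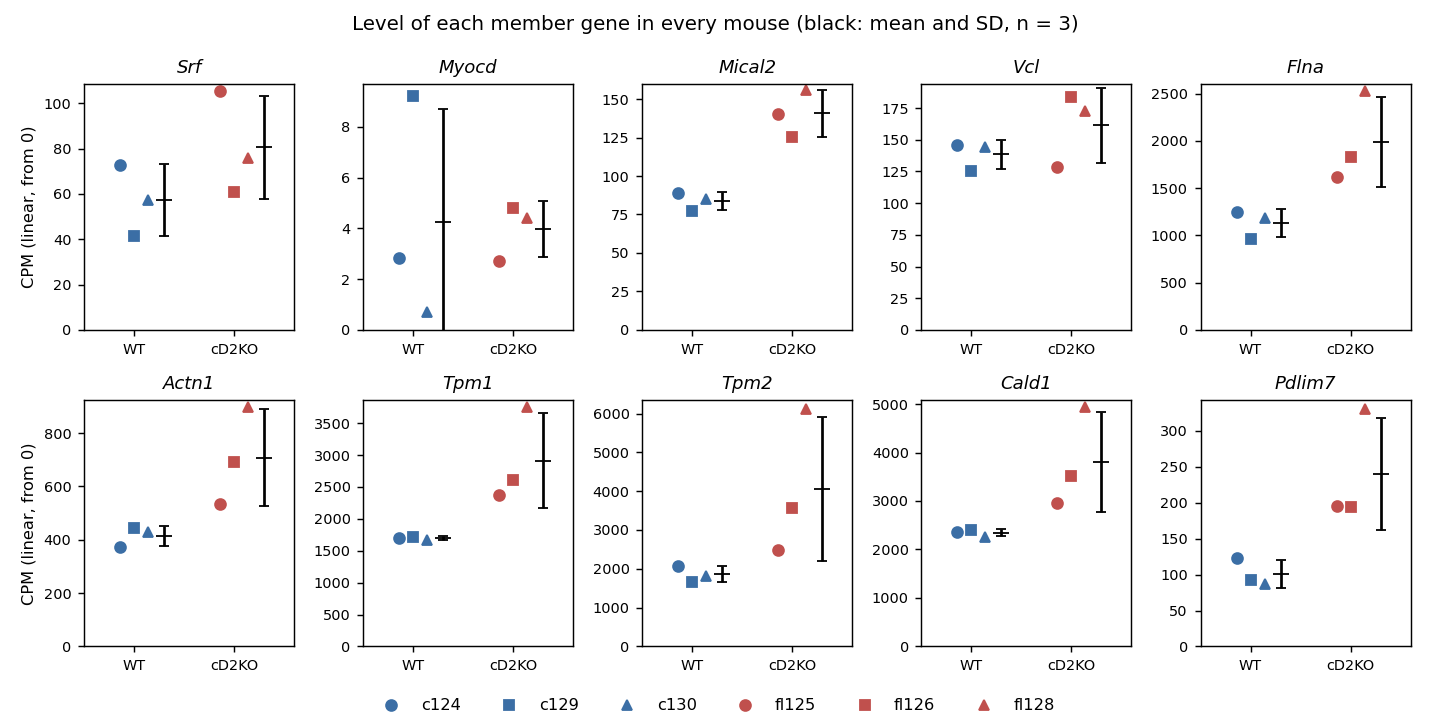
Level of each of the 10 genes in every mouse, in CPM on linear axes that start at 0, with WT mice in blue and cD2KO mice in red; black bars give the mean and SD of 3 mice, and the lower bar of Myocd in WT is cut at 0. In Mical2, Flna, Actn1, Tpm1, Tpm2, Cald1 and Pdlim7 all red points lie above all blue points, and the cD2KO mouse fl128 is highest in each of these 7, while Srf, Myocd and Vcl overlap.

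Vinculin, encoded by Vcl (ENSMUSG00000021823, chr14:20929398-21033676, plus strand), links integrin adhesions to actin filaments. It was at 146, 125.5 and 144.3 CPM in c124, c129 and c130 and at 128.2, 184 and 172.4 CPM in fl125, fl126 and fl128. The groups overlapped because fl125 lay within the WT range, while fl126 and fl128 lay above it. The log2 fold change was 0.22 ± 0.20 (standard error) with all mice and 0.40 without fl125, where Vcl was called higher. An exon of Ap3m1 overlaps Vcl on the opposite strand, and if strand was ignored in counting, reads of that stretch cannot be assigned to either gene.

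Pdlim7 (ENSMUSG00000021493, chr13:55495795-55513676, minus strand), a PDZ and LIM domain protein of actin bundles and adhesions, showed the widest difference of the 10 genes. It was at 123.4, 92.3 and 86.5 CPM in c124, c129 and c130 and at 195.2, 193.9 and 330.1 CPM in fl125, fl126 and fl128. Here fl125 and fl126 were almost equal and fl128 lay far above both, yet even the lower of them was 57.1% above the highest WT mouse. The means of 100.8 ± 19.8 CPM and 239.7 ± 78.2 CPM (SD, n = 3 mice each) gave a ratio of 2.38, and the log2 fold change was 1.25 ± 0.25 (standard error). The microRNA gene Mir6945 lies within an exon of Pdlim7 on the same strand.

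Flna (ENSMUSG00000031328, chrX:74223461-74249820, minus strand) encodes filamin A, which joins actin filaments into a network. It was at 1249.8, 962 and 1182 CPM in c124, c129 and c130 and at 1617, 1835 and 2528 CPM in fl125, fl126 and fl128. All cD2KO mice lay above all WT mice, by 29.4% at the nearest. Means were 1131 ± 150.5 CPM and 1993 ± 475.7 CPM (SD, n = 3 mice each), a ratio of 1.76 and a log2 fold change of 0.82 ± 0.22 (standard error).

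Actn1 (ENSMUSG00000015143, chr12:80167547-80260371, minus strand), an alpha-actinin that bundles filaments at adhesions, was at 372.8, 442.6 and 430.6 CPM in c124, c129 and c130. It was at 534.8, 691 and 897 CPM in fl125, fl126 and fl128. The gap between the nearest mice, fl125 and c129, was 20.8%, and the mice of each group kept to their own range. Actn1 had a ratio of means of 1.70 and differed by 0.77 ± 0.22 on the log2 scale (standard error). Gm47766 and Gm47767 overlap exons of Actn1 on the opposite strand.

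Tropomyosins lie along the actin filament and govern which proteins reach it. Tpm1 (ENSMUSG00000032366, chr9:67022590-67049406, minus strand) was at 1697, 1723 and 1662 CPM in c124, c129 and c130 and at 2367, 2607 and 3755 CPM in fl125, fl126 and fl128. Its WT mice differed by a coefficient of variation of only 1.80%, the smallest of the 10 genes, against 25.5% among the cD2KO mice. On the log2 scale Tpm1 differed by 0.78 ± 0.22 (standard error).

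Tpm2 (ENSMUSG00000028464, chr4:43514711-43523765, minus strand), the beta-tropomyosin gene, was at 2076, 1669 and 1824 CPM in c124, c129 and c130. It was at 2490.2, 3560 and 6120.2 CPM in fl125, fl126 and fl128. The cD2KO mice were spread more widely here than in any other of the 10 genes, with a coefficient of variation of 46%, and fl125 stood 19.9% above the highest WT mouse. The log2 fold change was 1.13 ± 0.29 (standard error) with all mice and 0.70 without fl128, where Tpm2 was still called higher. Tropomyosin genes share stretches of sequence, so reads that fit more than a single gene are uncertain.

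Caldesmon, encoded by Cald1 (ENSMUSG00000029761, chr6:34598500-34775473, plus strand), binds actin, myosin and tropomyosin and restrains contraction. It was at 2364, 2401 and 2266 CPM in c124, c129 and c130 and at 2964, 3508 and 4945 CPM in fl125, fl126 and fl128. As for Tpm1, the WT mice were nearly level and the cD2KO mice were spread out, with the lowest of them 23.4% above the highest WT mouse. The log2 fold change was 0.70 ± 0.22 (standard error) with all mice and 0.47 without fl128.

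Taken by mouse, the 10 genes held 0.786% to 0.821% of all counts in the WT libraries. They held 1.07%, 1.25% and 1.79% in fl125, fl126 and fl128. The cD2KO mouse fl128 had the highest level in 7 of the 10 genes, while it was highest in 18.6% of all genes tested. In the 7 genes that separated the genotypes the highest library had to be a cD2KO mouse, so the share over all genes is not a like comparison. The coefficient of variation was larger in cD2KO than in WT mice for 9 of the 10 genes, Myocd being the exception, and for 56.6% of all genes tested. Nothing is read from either share, since the 10 genes were selected on this contrast. Without fl128 the median log2 fold change of the 10 genes was 0.56, and 7 were still called higher. In a pool of sorted cells, fewer or more cells of a type and less or more RNA per cell cannot be told apart.

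The profile of a gene over the 6 mice was taken as its log2 CPM minus its own mean, and likeness as the root mean square difference of 2 profiles on that log2 scale. Tpm1 and Cald1 were the nearest pair of the 10 genes, at 0.053, followed by Actn1 and Cald1 at 0.0996 and Actn1 and Tpm1 at 0.103. Pdlim7 was nearest to Tpm2, at 0.221. Srf was nearest to Mical2, at 0.299, and farther from the other 8 genes. Myocd stood apart from all others by 0.839 to 1.08.

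Outside the 10 genes, the profiles nearest to their mean were those of Sort1, a sorting receptor, Hacd1, an enzyme of fatty acid elongation, Timm13, a mitochondrial import protein, Synpo2, an actin-binding protein of the Z-disc, and Mdh1, the cytosolic malate dehydrogenase. Their root mean square differences were 0.082 to 0.0983 over the 6 mice. Synpo2 is also in the list of smooth muscle contractile genes given below, where it was called higher. The mean profile weighs the 10 genes equally, with Myocd among them at 1.29 in c129 and -1.57 in c130 on this scale. Myocd rests on 2 to 25 counts, and a mean without it was not taken. Nearest to Mical2 was Tgfb2, a ligand of the TGF-β family, at 0.040. Tgfb2 averaged 75.6 CPM over the WT mice and 128.9 CPM over the cD2KO mice, a difference of 0.77 ± 0.19 on the log2 scale (standard error). Oaz2, Pgm5, Cavin1 and Spa17 followed at 0.0775 to 0.0906. Pgm5 encodes a protein of adhesions and Cavin1 a coat protein of caveolae. These likenesses describe the same 6 libraries and share their depth and scaling.

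**Figure D2:**
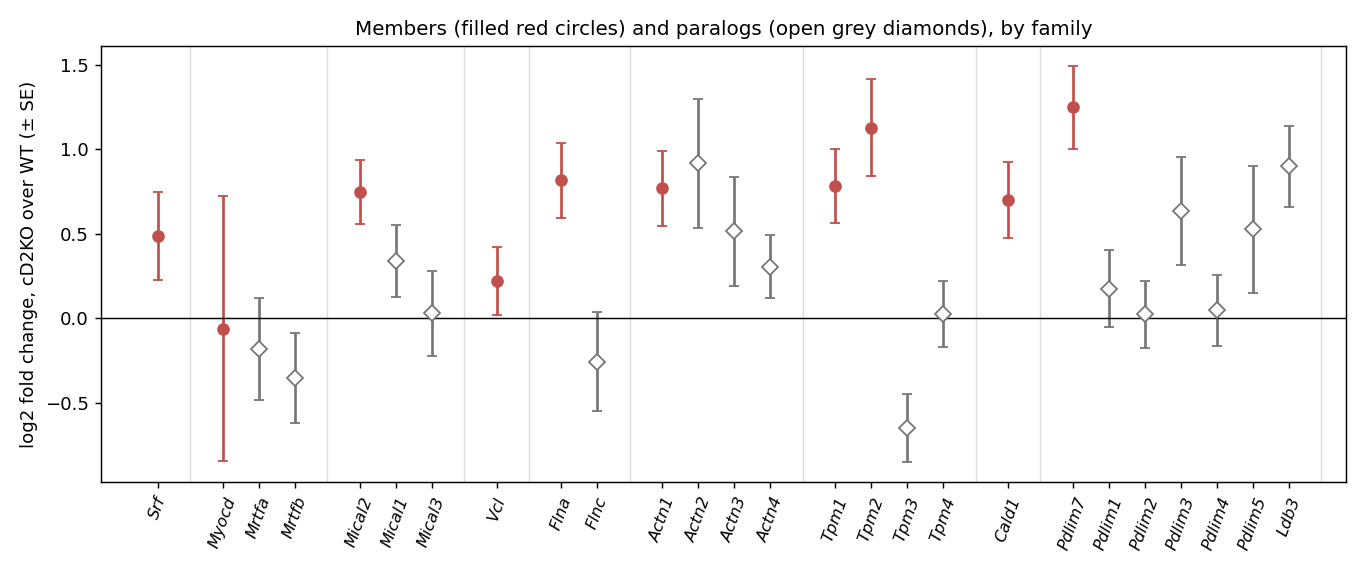
Log2 fold change of cD2KO over WT with its standard error for each of the 10 genes (filled red circles) and their family members (open grey diamonds), grouped by family. Flna at 0.82 lies above Flnc at -0.26, and Tpm1 at 0.78 and Tpm2 at 1.13 lie above Tpm3 at -0.65 and Tpm4 at 0.02.

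Of 17 tested family members of the 10 genes, 2 were called higher and 1 lower, and their median log2 fold change was 0.05. Beside these counts and those of the lists below, 5.34% of all genes tested were called higher and 6.62% lower. The filamin Flnc, known from striated muscle, was at -0.26 ± 0.29 on the log2 fold change scale (standard error) and did not pass the threshold. Of the tropomyosins, Tpm4 was at 0.02 ± 0.19 and did not pass, while Tpm3 fell. Tpm3 was at 132.9, 173.9 and 120.5 CPM in c124, c129 and c130 and at 87.9, 95.1 and 88.6 CPM in fl125, fl126 and fl128. Its groups did not overlap, and its log2 fold change was -0.65 ± 0.20 (standard error, adjusted p = 0.188 in edgeR's quasi-likelihood test).

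Among the alpha-actinins, the muscle gene Actn2 was called higher, at 0.92 ± 0.38 on the log2 scale (standard error, adjusted p = 0.369 in edgeR), while its groups overlapped. That call was lost without c129, without c130 and without fl128, where the log2 fold change was 0.90, 0.65 and 0.68. Actn3, the fast fiber isoform, was at 0.52 and the non-muscle Actn4 at 0.31, neither of which passed. Of the PDZ and LIM family, Ldb3, a protein of the Z-disc, was higher, with WT mice at 41.2 to 63.0 CPM and cD2KO mice at 69.4 to 105.5 CPM, and its log2 fold change was 0.90 ± 0.24 (standard error, adjusted p = 0.132 in edgeR). Pdlim3 at 0.63 and Pdlim5 at 0.53 did not pass, and Pdlim1, Pdlim2 and Pdlim4 lay between 0.02 and 0.17. Differences between family members were not tested.

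Around Mical2, the MICAL family, its MICAL-like relatives that lack the oxidase domain, and the methionine sulfoxide reductases were examined as a list of 9 genes, of which 8 were tested, Mical2 among them. Of these 3 were called higher and 0 lower, with a median log2 fold change of 0.44. Besides Mical2 the called genes were Msrb1 and Msrb3, both methionine sulfoxide reductases. Msrb1, which reduces the methionines that Mical enzymes oxidize, was at 153.4, 100.04 and 116 CPM in c124, c129 and c130 and at 193.4, 199.4 and 376.8 CPM in fl125, fl126 and fl128. Its groups did not overlap, and fl128 was again far above the others. On the log2 scale Msrb1 differed by 1.06 ± 0.27 (standard error, adjusted p = 0.124 in edgeR) with all mice and 0.67 without fl128. Msrb3 differed by 0.54 ± 0.24 on the log2 scale (standard error, adjusted p = 0.395 in edgeR), and its call was lost without c124, c130, fl125 or fl128, at 0.51, 0.48, 0.46 and 0.52, and also with DESeq2, total count scaling and a minimum mean of 50, at 0.56, 0.48 and 0.51. Mical1 was at 0.34 and Mical3 at 0.03, neither of which passed.

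None of the SRF cofactors and partners was called in either direction, in a list of 10 tested genes that includes Srf and Myocd. Their median log2 fold change was -0.07. The actin-regulated cofactors Mrtfa and Mrtfb were at -0.18 ± 0.30 and -0.35 ± 0.27 (standard errors) and overlapped between the groups. The ternary complex factors Elk1, Elk3 and Elk4 were at 0.18, -0.13 and -0.07. The cardiac partners Nkx2-5, Gata4 and Gata6 were not tested, the first 2 of them at 0 in every library.

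**Figure D3:**
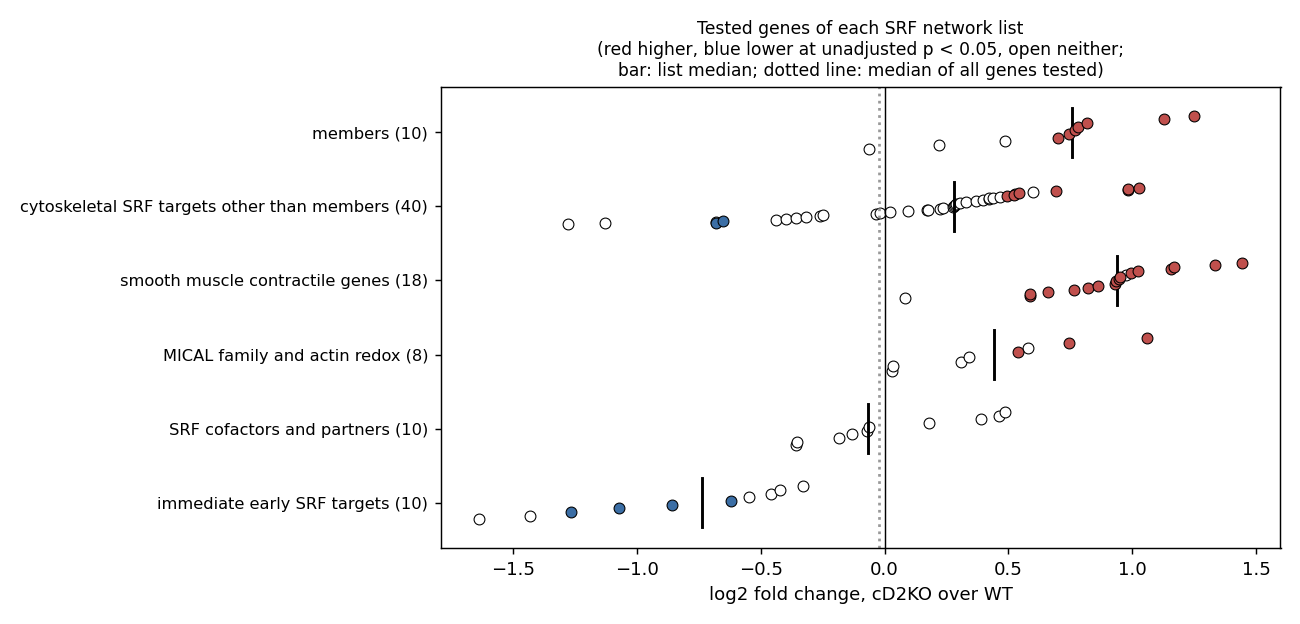
Log2 fold change of cD2KO over WT for every tested gene of 6 lists, with genes called higher in red, genes called lower in blue, the others open, a bar at the list's median and a dotted line at the median of all genes tested (-0.02); vertical spread within a list has no meaning. The 10 genes described (named members in the plot, median 0.76) and the smooth muscle contractile genes (median 0.94) lie to the right, and the immediate early targets (median -0.74) to the left.

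Cytoskeletal SRF targets outside the 10 genes were taken from a list of 42, of which 40 were tested. Of these 7 were called higher and 2 lower, where all genes tested gave 5.34% and 6.62%. A positive log2 fold change was found in 27 of the 40, against 5595 of all 11633 genes tested, and the median was 0.28. Those higher with the smallest p were Palld, Synpo, Csrp1, Enah and Filip1l, all of which are linked to actin filaments. The remaining ones were Lpp at 0.49 and Nexn at 0.52.

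Palld, which encodes palladin, a scaffold of actin bundles, was at 647, 626 and 571 CPM in c124, c129 and c130 and at 1009, 1096 and 1540 CPM in fl125, fl126 and fl128. All cD2KO mice lay well above all WT mice, and the log2 fold change was 0.98 ± 0.21 (standard error, adjusted p = 0.0974 in edgeR). Synpo, which encodes synaptopodin, differed by 1.03 ± 0.26 on the log2 scale (standard error, adjusted p = 0.123 in edgeR), which was 0.67 without fl128. Csrp1, a LIM protein of actin bundles, was at 0.98 ± 0.28 (standard error, adjusted p = 0.151 in edgeR). Enah, which promotes filament elongation, was at 0.69 ± 0.21 (standard error, adjusted p = 0.184 in edgeR), and Filip1l, a filamin interacting protein, at 0.54 ± 0.19 (standard error, adjusted p = 0.258 in edgeR).

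The cytoskeletal targets that fell were Tpm3, given above, and Arpc5, a subunit of the Arp2/3 complex that starts branched filaments. WT mice had Arpc5 at 93.8 to 116 CPM and cD2KO mice at 58.5 to 72.5 CPM, without overlap, and its log2 fold change was -0.68 ± 0.20 (standard error, adjusted p = 0.163 in edgeR). Actb, the cytoplasmic beta-actin, ranged from 7964 to 9858 CPM over WT and from 8842 to 10892 CPM over cD2KO mice, and its log2 fold change of 0.17 ± 0.21 (standard error) did not pass. Actg1 was near the floor, at 1.37 to 7.38 CPM, and how reads that match several copies of such a gene were counted is not given in the sources used here. The number of cytoskeletal targets called higher was 15 without fl125 and from 5 to 9 without any other mouse, and the number called lower was 4 without fl125.

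Immediate early targets, the genes SRF serves with the ternary complex factors, lay on the negative side. Of 10 tested, 0 were called higher and 4 lower, all 10 had a negative log2 fold change, and the median was -0.74. Fos, a subunit of the AP-1 factor, was at 298.3, 1043 and 506.7 CPM in c124, c129 and c130 and at 214.2, 345.8 and 319.4 CPM in fl125, fl126 and fl128. The WT mouse c129 was far above the rest, and the groups overlapped. The log2 fold changes of those called were -1.26 for Ier2, -0.86 for Egr1, -1.07 for Fos and -0.62 for Junb, with adjusted p of 0.360, 0.379, 0.388 and 0.396 in edgeR. The number called lower was 0 without c129 and 0 without fl128 by edgeR, and 1 without fl125, so that single mice decided these calls. Without c129 the log2 fold changes were -0.46 for Ier2, -0.32 for Egr1, -0.43 for Fos and -0.37 for Junb.

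Smooth muscle contractile genes, which myocardin and SRF are known to drive in vessel walls, were called higher in 16 of 18 tested genes and lower in 0. Their median log2 fold change was 0.94. No member of the 10 genes is in that list, but both were written by hand and hold known SRF targets. They are thus not independent sets. Cnn1, which encodes calponin, was at 179.5, 188.6 and 227.8 CPM in c124, c129 and c130 and at 375, 489.8 and 755.3 CPM in fl125, fl126 and fl128. The groups did not overlap, fl128 was highest, and the log2 fold change was 1.44 ± 0.25 (standard error, adjusted p = 0.0885 in edgeR). Mylk, the myosin light chain kinase, was at 1.02 ± 0.23, Myh11, the smooth muscle myosin heavy chain, at 0.996 ± 0.25, Tagln, or transgelin, at 0.95 ± 0.19 and Pln, or phospholamban, at 0.93 ± 0.24 on the log2 fold change scale (standard errors, adjusted p from 0.0885 to 0.124 in edgeR). The cD2KO mouse fl128 was the highest library in 15 of the 18 genes. The count called higher was 14 to 17 with each mouse left out in turn.

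**Figure D4:**
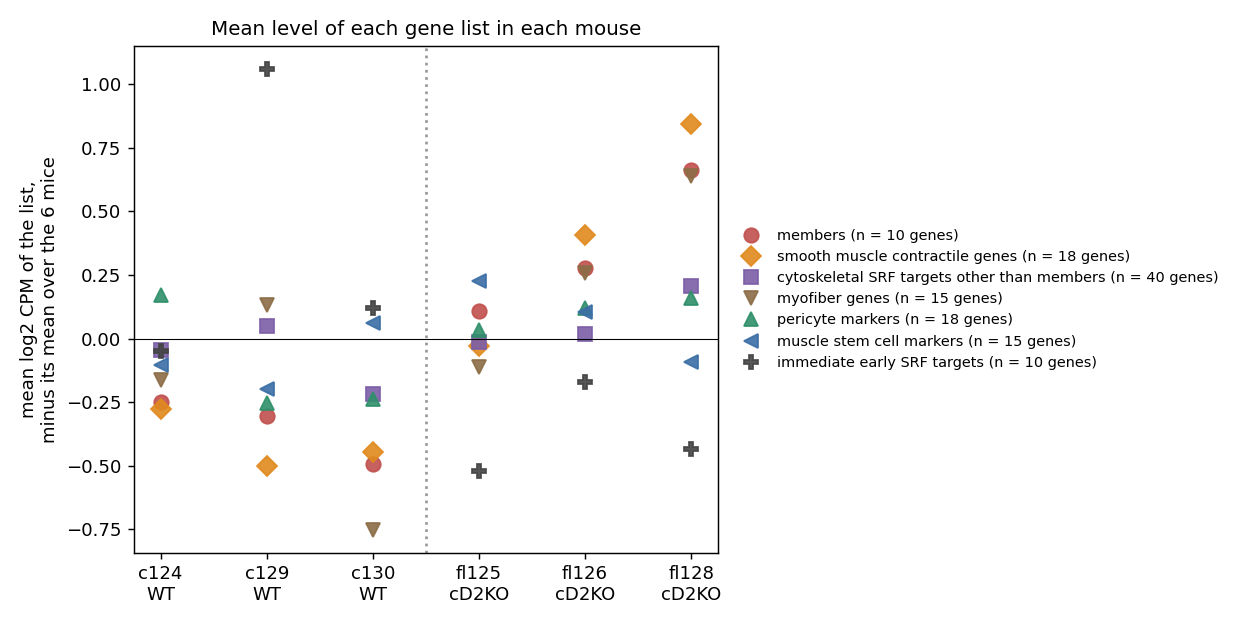
Mean log2 CPM of 7 gene lists in each mouse, minus the mean of the list over the 6 mice, with WT mice left and cD2KO mice right of the dotted line. The 10 genes described (named members in the plot) and the smooth muscle contractile genes have fl128 highest and fl125 lowest of the cD2KO mice. So do the other cytoskeletal targets, the myofiber genes and the pericyte markers, while the muscle stem cell markers run the other way. The immediate early targets are highest in the WT mouse c129.

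Markers of the cells that the GFP gate could hold moved beside the 10 genes to different extents, and their part in the difference was not tested. The summed level of the 18 smooth muscle contractile genes ranged from 10628 to 14755 CPM over WT and from 18716 to 34875 CPM over cD2KO mice, without overlap, and in the cD2KO mice it had the order of the summed level of the 10 genes. That level was 8193, 7543 and 7738 CPM in c124, c129 and c130 and 10544, 12769 and 18984 CPM in fl125, fl126 and fl128. The summed levels of the myofiber, endothelial, immune and fibroadipogenic lists and of the other cytoskeletal targets had the same order over the cD2KO mice. Those of the pericyte, muscle stem cell and Schwann cell lists did not. All 15 myofiber genes were on the positive side, at a median log2 fold change of 0.50, but only 2 were called, and the summed level in WT mice, 2637 to 5610.2 CPM, overlapped that in cD2KO mice, 4528 to 8536 CPM.

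Pericyte markers, from cells that share the vessel wall with smooth muscle, were called higher in 3 of 18 genes and lower in 0, with a median of 0.28. Their summed levels overlapped, with WT mice at 3481 to 5438 CPM and cD2KO mice at 4760 to 5379 CPM. The called genes were Notch3 at a log2 fold change of 0.75 and Mcam at 0.73, in both of which every cD2KO mouse lay above every WT mouse, and Cox4i2 at 1.28. The defining pericyte genes Rgs5 and Pdgfrb were at 0.00 ± 0.40 and -0.06 ± 0.22 on the log2 fold change scale (standard errors), with neither passing the threshold. Muscle stem cell markers were called higher in 3 of 15 genes and lower in 0, with a median of 0.26. Pax7 itself, at a log2 fold change of 0.47, did not pass. The called genes were Itga7 at 0.71 and Cdh15 at 0.51, in both of which every cD2KO mouse lay above every WT mouse, and Myf5. Myf5 was at 0.59 ± 0.26 (standard error, adjusted p = 0.399 in edgeR), and its groups overlapped.

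The remaining marker lists lay level with WT or below it. Endothelial markers were called lower in 7 of 13 tested genes, with a median log2 fold change of -1.24 and Pecam1 at -2.04. Pecam1 rests on few reads, with 4, 5 and 20 counts in fl125, fl126 and fl128. A positive log2 fold change was found in 2 of the 13, Esam at 0.32 and Tek at 0.04, neither of which passed. Immune markers were called lower in 4 of 13, with a median of -1.84 and Ptprc at -1.98. Of the 13, 0 had a positive log2 fold change, as 5595 of all 11633 genes tested did. The summed level of the immune markers was 221 CPM in fl125 against 2342 and 2781 CPM in fl126 and fl128 and 4055 to 7748 CPM in WT mice. Fibroadipogenic markers were higher in 1 and lower in 2 of 11, and Schwann cell markers were lower in 2 of 10. Of the sex-linked genes, the Y-linked Ddx3y, Uty and Kdm5d were found in every mouse, Xist had at most 1 count in a library, and Eif2s3y was lower, at -1.56 ± 0.32 on the log2 fold change scale (standard error, adjusted p = 0.0885 in edgeR).

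The CArG box is part of what made genes such as Srf and Vcl known as SRF targets, so its frequency among the 10 genes is a description that is not independent of their choice. RefSeq windows on GRCm38.p6 (mm10) from 250 bases before to 50 bases after each start were searched on both strands for the CArG box, here 10 bases with 6 of A or T in the middle, and 9 of the 10 genes had such a window. An exact box was found in 2 of the 9, or 22.2%, namely Srf and Vcl, and in 1.81% of all 27025 genes with a window. With 1 mismatch allowed it was found in 5 of 9, or 55.6%, against 23.8% of all genes, and the additional genes were Flna, Tpm1 and Cald1. Neither Srf nor Vcl was among the 7 genes called higher, and none of those 7 held an exact box in its window. No match says only that these letters do not occur in this stretch.

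The box of Vcl and those of 3 other cytoskeletal genes and a smooth muscle gene are shown with 20 bases on each side, on the strand of the gene, so that they can be set beside the promoter of Srf. Capitals mark the box. Filip1l was called higher among the cytoskeletal targets and Myl9 among the smooth muscle genes, while Cnn2 and Actg1 did not pass.
Vcl (chr14:20929151-20929200): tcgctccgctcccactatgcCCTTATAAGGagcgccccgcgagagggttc
Filip1l (chr16:57549160-57549209): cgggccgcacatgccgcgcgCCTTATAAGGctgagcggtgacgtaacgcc
Myl9 (chr2:156775283-156775332): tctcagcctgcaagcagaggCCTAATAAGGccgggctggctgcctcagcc
Cnn2 (chr10:79988524-79988573): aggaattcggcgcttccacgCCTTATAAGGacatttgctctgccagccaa
Actg1 (chr11:120348556-120348605): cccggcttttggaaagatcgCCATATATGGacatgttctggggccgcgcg
The box lay 227 to 218 bases before the start in Vcl, 62 to 53 in Filip1l, 161 to 152 in Myl9, 56 to 47 in Cnn2 and 90 to 81 in Actg1. Vcl, Filip1l and Cnn2 had the same 10 bases. Boxes of Fhl1, 102 to 93 bases before the start, and of Trip6, at bases 1 to 10 from the start, are not shown, and neither gene passed the threshold.

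For 3 of the 7 genes called higher a sequence with 1 mismatch to the box was found, written here with that sequence in capitals.
Flna (chrX:74246549-74246598): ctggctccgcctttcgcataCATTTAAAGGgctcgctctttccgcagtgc
Tpm1 (chr9:67049405-67049454): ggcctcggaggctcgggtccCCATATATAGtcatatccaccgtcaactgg
Cald1 (chr6:34598281-34598330): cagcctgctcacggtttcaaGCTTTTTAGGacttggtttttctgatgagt
Tpm1 held a further match with 1 mismatch, 80 to 71 bases before the start, where the match shown lay 221 to 212 bases before it. A match with 1 mismatch is frequent over all genes, as given above.

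Among the lists, an exact box was found in 5 of 34 cytoskeletal targets outside the 10 genes with a window, or 14.7%, in 2 of 8 immediate early targets, or 25%, and in 1 of 14 smooth muscle contractile genes, or 7.14%. Over the whole table, 153 genes that were tested had an exact box in a window. Of these 18 were called higher, or 11.8%, and 5 lower, or 3.27%, where all genes tested gave 5.34% and 6.62%. The latter shares include genes without a window. Only 9141 of the genes tested had a window, and the shares among those were not taken. The median log2 fold change of these 153 genes was 0.03.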

How the data were processed

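RNA was extracted with the RNeasy Mini Kit and libraries were made by a commercial digital RNA-seq service, per the labels. The authors deposited raw counts of reads per gene, a column for each mouse. The submitters' processing notes name bcl2fastq, STAR 2.6.0a, HTSeq 0.9.1 and mm10, while annotation, strandedness and duplicate handling are not given in the sources used here. Of the 31053 identifiers, 30934 were found in GENCODE M21.

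A gene was kept where its mean count over the mice, scaled by DESeq2 size factors, exceeded 10, and 11633 were. The deposited counts of all 6 mice entered edgeR 4.0.16 (R 4.3.3; quasi-likelihood, TMM factors, robust estimation, no covariate). A call was an unadjusted p under 0.05, with Benjamini-Hochberg adjusted p over all genes tested beside it. Standard errors are the log2 fold change over the root of the F statistic. CPM used TMM-scaled totals, and log2 CPM a prior count of 2. The test was first tried on simulated counts. Alternatives were DESeq2 1.42.0, limma 3.58.1 with voom, 3 other scalings, 3 other filters, non-robust estimation, and leaving out each mouse. The counts of smooth muscle and immediate early genes and the median of all genes were added to these alternatives after the data had been seen.

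The 10 genes and all gene lists, which were written by hand, were chosen with earlier results of these data known. Named are the 10 genes, their family members, Dio2, up to 5 called genes in each direction with the smallest p per network list, the 5 nearest profiles, defining markers and sex-linked genes. Genes with a CArG box, and others that the lists' descriptions name, were chosen after their values were seen. Some genes and a list that fall under these rules are not reported here.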

Additional observations from a re-analysis of the deposited data

How the results depend on the processing

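The 7 genes called higher (Mical2, Pdlim7, Flna, Actn1, Tpm1, Tpm2 and Cald1) were called higher in every alternative run, with 7 to 8 of the 10 genes called and 0 lower, though they were selected on this contrast. The median log2 fold change of the 10 genes was 0.69 under total count scaling, 0.74 to 0.79 under the other tests, scalings and filters except the minimum mean of 50, where it was 0.73 over 9 genes, and 0.56 to 0.92 with each mouse left out. Without c129 the median was likewise over 9 genes, since Myocd fell under the minimum for a test. At an adjusted p under 0.05 the number of the 10 genes was 6 with DESeq2, 7 without a minimum on counts, 7 without fl125 and 0 otherwise, while the share of all genes that passed was 2.37%, 2.83% and 2.49% in these 3 and at most 0.0602% otherwise. Cytoskeletal targets outside the 10 genes called higher were 11 without a minimum on counts, against 7, and 5 to 15 with each mouse left out, and those called lower were 2 to 4. Immediate early targets called lower were 0 to 6 with each mouse left out, and smooth muscle genes called higher 14 to 17. The number of genes with a CArG box rose from 2 to 5 with 1 mismatch allowed. A tally was made over the 10 genes, their called family members, the genes named by smallest p per network list and the nearest profiles. Dio2, the sex-linked genes and the markers outside the network lists were not in it, and some of its genes are not reported here. Of its 627 values, 583 kept their direction and side of the threshold, 38 lost the call, 4 gained it and 2 changed sign. Those that gained it were Srf without a minimum on counts, without c124 and without fl126, and Vcl without fl125. The changes of sign were of Myocd, which was not called. It was at 0.57 with limma voom and between -0.53 and 0.18 over the fits that left out a mouse other than c129. Over all genes, the number called higher ranged from 402 to 939 and the number called lower from 399 to 1040. The cause of these shifts was not tested.

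No paired analysis was possible because the labels give no litter, batch or other mark that pairs a WT with a cD2KO mouse. With 3 mice a group, SDs and standard errors are themselves uncertain, and at this depth Myocd and Dio2, with at most 25 and 21 counts in a library, rest on few reads.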
